A study of Rattus norvegicus with 24 samples.

Results

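The left ventricles of Dahl salt-sensitive rats fed high salt were compared between the 6-week and the 15-week arrays, 3 arrays in each group, chosen by the diet letter and the week in their titles (6 of the 24 deposited columns). Dahl salt-sensitive (DS) rats are a strain that becomes hypertensive on dietary salt; per the labels the animals arrived at 5 weeks of age, and those of the high salt groups received chow with 6% NaCl from 6 weeks of age. The sedentary control groups were DS rats of matched age on normal chow, and further groups were trained on a treadmill. All groups therefore share the DS background, and none comes from a salt-resistant strain. The labels do not say from which day the 3, 6 and 15 weeks were counted; the first of these precedes the age at which the rats arrived, so it cannot be an age. Sex is not stated, nor whether each array holds 1 animal, so the p-values below speak only to array-to-array spread, which may be technical. The title of the first 6-week high salt array carries an extra number (1-2) that the labels do not explain. Within the high salt groups, time on the diet and age run together and cannot be told apart.

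Pressure load makes the ventricular wall thicken, and with long-standing hypertension the DS heart passes from compensated hypertrophy to failure. Loaded myocytes are known to switch on natriuretic peptides and skeletal actin, fibroblasts to lay down collagen, and resident and incoming leukocytes to present antigen on class II molecules of the major histocompatibility complex (MHC). The comparison asks which of these transcripts moved further between the earlier and the later high salt hearts.

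Each array gave 1 scaled intensity for each of 8799 probe sets (groups of short probes for 1 transcript), with a 2% trimmed mean between 500.8 and 501.0 in every array. Array number, not read depth, limits the precision here. The control probes that read the 3' and 5' ends of 1 transcript, whose ratio rises in degraded RNA, gave GAPDH ratios of 1.04 to 1.17 at 6 weeks and 1.11 to 1.16 at 15 weeks. The beta-actin ratios were 1.21 to 1.62 and 1.32 to 1.68, and the hexokinase ratios 1.48 to 2.19 and 1.80 to 2.29. The ranges of the 2 groups overlapped for all 3 transcripts, while the 3-week high salt arrays lay lower for beta-actin (1.04 to 1.06). The second 15-week array had the highest median intensity, 156.0 against 114.9 to 136.5 in the other 5. The tissue label held: Myh6, Myh7, Actc1, Tnnt2 and Myl2, which encode the myosin, actin, troponin T and myosin light chain of the cardiac sarcomere, had mean intensities of at least 26747 in both groups, and none of 12 cardiac myocyte markers passed the test (1 of 12 at an unadjusted p under 0.05; limma). Their summed intensity was 301423 to 385637 at 6 weeks and 265887 to 373751 at 15 weeks.

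In limma's test on log2(intensity + 40), 209 of 6555 probe sets changed at an adjusted p under 0.05 (3.19%), of which 108 rose (1.65%) and 101 fell (1.54%). At an unadjusted p under 0.05 there were 845. The median change over all probe sets was 0.01 on the log2 scale. Intensities of the 2 groups of arrays did not overlap for 204 of the 209 called probe sets (97.6%), against 1023 of all 6555 (15.6%). Taking each gene at its brightest probe set, 120 of 3828 genes changed (3.13%), 64 upward (1.67%) and 56 downward (1.46%). For comparison, 5 probe sets changed between the 3-week and the 6-week high salt arrays (0.0763%), all downward (303 at an unadjusted p under 0.05). These comparisons share the 6-week arrays and are given side by side only. The plot of change against p for all probe sets shows Alox15 far to the right of every other named gene. Cd74, Col3a1 and RT1-Ba lie farthest to the left among the named genes.

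**Figure D1:**
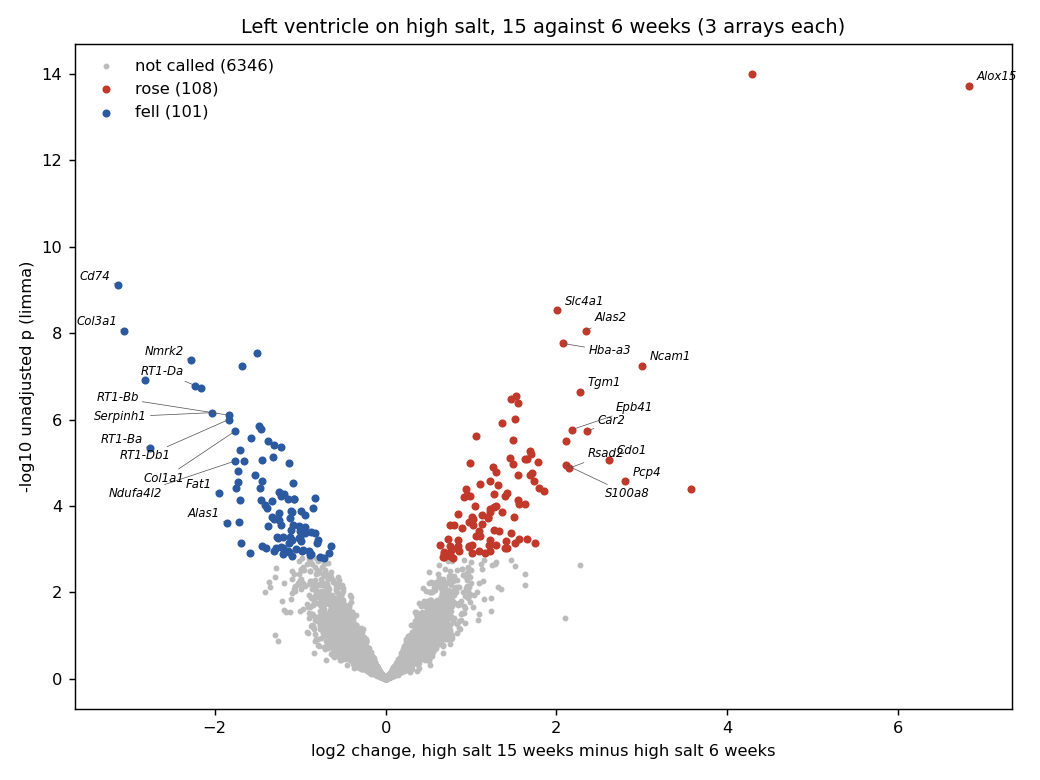
Log2 change from 6 to 15 weeks on high salt (horizontal axis) against -log10 of the unadjusted limma p (vertical axis) for 6555 probe sets, 3 arrays a group; red points rose (108), blue points fell (101), grey points did not pass an adjusted p of 0.05. The 12 genes named in each direction are those with the largest called changes whose arrays did not overlap, from Alox15 at 6.83 to Cd74 at -3.14.

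Of 39 gene lists, 17 held no called gene. Lists whose called genes only fell included collagens, MHC and antigen presentation, endoplasmic reticulum (ER) chaperones and cytoskeleton; all 5 red blood cell markers tested rose. Among all 3828 genes 1.67% rose and 1.46% fell, and each list count below is to be set beside these shares. The median log2 change over all 3828 genes was 0.02. The strip plot of list members shows the collagen, MHC and ER lists spread to the left of that line and the sarcomere, energy metabolism and ribosomal lists gathered around it.

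**Figure D2:**
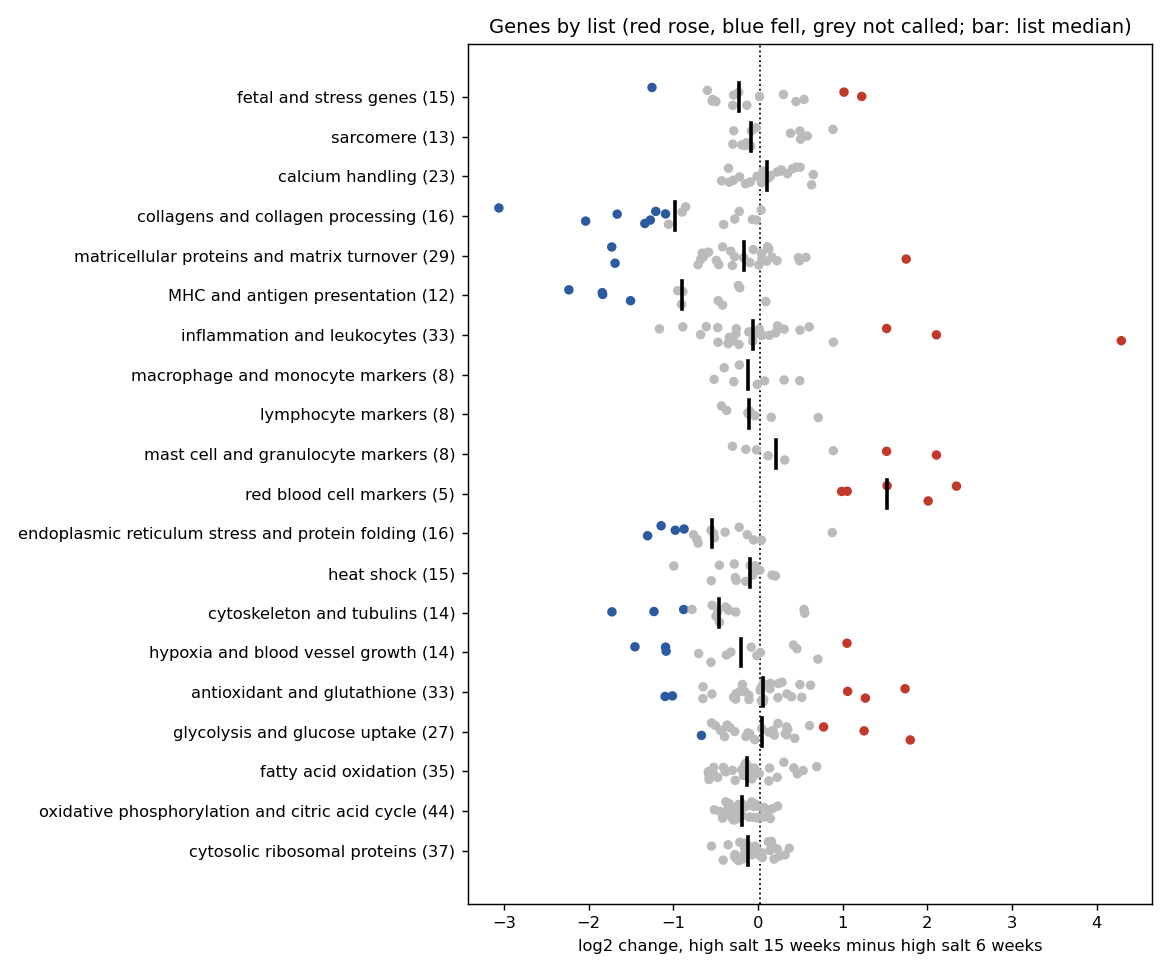
Log2 change from 6 to 15 weeks on high salt (horizontal axis) for the tested members of 20 gene lists (rows, with the number tested), each gene at its brightest probe set; red points rose, blue points fell, grey points were not called, the black bar is the list's median and the dotted line the median of all genes (0.02). The medians of the collagen list (-0.98), the MHC list (-0.89) and the red blood cell list (1.53) lie farthest from the dotted line.

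The 2 natriuretic peptides moved in opposite directions. Nppa, which encodes atrial natriuretic peptide, a hormone that lowers blood volume and is a marker of ventricular load, had intensities of 9981, 9800.1 and 10216 at 6 weeks and 20861, 25454 and 24219 at 15 weeks (probe set E00698cds_s_at). Every 15-week array was above every 6-week array and above the 15-week controls, at 3115, 4937 and 5466. The rise was log2 1.23 ± 0.30, adjusted p = 0.0256, and 3 of its 4 probe sets passed the test. Nppb, which encodes brain natriuretic peptide, fell from 5792, 7294 and 7911 to 3314, 3723 and 1959 (log2 -1.25 ± 0.28, adjusted p = 0.012). The 15-week high salt values of Nppb overlapped the 15-week control values, which were 3953, 3095 and 4348. On this Nppa probe set the call was lost without any 1 of the 6 arrays (log2 1.17 to 1.31, adjusted p 0.0534 to 0.0872); the other called ones, at adjusted p-values of 0.00644 and 0.00878, were not tested this way. The Nppb call was lost without the third 15-week or the third 6-week array (log2 -1.16 to -0.97, adjusted p 0.0626 to 0.0858). Nppa is also an atrial marker. Of 7 atrial markers it alone was called (2 at an unadjusted p under 0.05, limma). The list had 6 of 7 log2 changes above 0 and a median of 0.34, against 0.02 over all genes. The summed intensity of the list was 22953 to 25189 at 6 weeks and 37046 to 48355 at 15 weeks. That sum includes Nppa itself, so it is not separate from the Nppa value. Myl7 and Myl4, the atrial light chains, had log2 changes of 0.34 and 0.45. The part of atrial tissue in the Nppa value was not tested.

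The contractile and calcium handling genes did not pass the test. Acta1, skeletal alpha-actin, was 16213, 16268 and 16661 at 6 weeks and 19009, 17933 and 13408 at 15 weeks (log2 0.02 ± 0.18), while the 15-week controls stood lower, at 5996, 9151 and 9014. Myh6 and Myh7, the fast and slow myosin heavy chains, differed by -0.30 ± 0.19 and -0.13 ± 0.23. Probe sets of the myosin genes can read related transcripts, so the split between them is uncertain. Atp2a2, the calcium pump of the sarcoplasmic reticulum, its inhibitor Pln and the release channel Ryr2 had log2 values of -0.29 ± 0.20, -0.01 ± 0.33 and 0.27 ± 0.48. None of 13 sarcomere genes and none of 23 calcium handling genes passed limma's adjusted threshold, and 3 genes of each list had an unadjusted p under 0.05. Ace, which encodes angiotensin-converting enzyme, rose from 331, 169 and 229 to 436, 524 and 602 (log2 1.02 ± 0.26, adjusted p = 0.0321); the call was lost without the second or the third array of either group (log2 0.82 to 1.01, adjusted p 0.0780 to 0.158).

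Alox15, an arachidonate lipoxygenase that makes hydroperoxy fatty acids, had the largest change of all named genes. On the probe set S69383_at its intensities were 384, 245 and 341 at 6 weeks and 7458, 7259.7 and 6272 at 15 weeks. The 3-week high salt arrays (447, 626 and 348) and the 15-week controls (456, 463 and 411) lay at 626 or lower, far under every 15-week high salt array. The change was log2 4.29 ± 0.21, adjusted p = 6.15e-11. Its other probe set went from 18.6, 30.7 and 21.4 to 9032, 6029 and 6758, a log2 change of 6.83 ± 0.35; the 3-week arrays were higher there, at 298, 492 and 292. Because the 6-week intensities there lie below the added constant of 40, the size of this second value depends on it and ran from 5.04 to 7.52 over all alternatives. Probe sets of this family can read related lipoxygenases, so the assignment to Alox15 alone is uncertain.

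Of 33 tested genes of inflammation and leukocytes, 3 rose and 0 fell (8 at an unadjusted p under 0.05, limma; 1.67% of all genes rose): Alox15, S100a8 and S100a9. S100a8 and S100a9 encode the calcium-binding proteins that form calprotectin, abundant in granulocytes. S100a8 rose from 21.2, 45.3 and 7.1 to 244, 106 and 434 (log2 2.11 ± 0.36, adjusted p = 0.0014); with its 6-week signal near the added constant, the log2 change was 0.98 with a constant of 200 and 2.69 with 16. S100a9 was 34.5, 62.1 and 57.9 at 6 weeks and 389, 73.7 and 319 at 15 weeks (log2 1.52 ± 0.38, adjusted p = 0.0288), with the second 15-week array near the 6-week level; this call was lost without any of the arrays other than that one (log2 1.16 to 1.61, adjusted p 0.0572 to 0.174). The summed intensity of 8 mast cell and granulocyte markers, S100a8 and S100a9 included, was 879 to 1389 at 6 weeks and 1678 to 1938 at 15 weeks. Apart from these 2 genes, none of the 8 was called. Lcn2, a granulocyte protein, had 0.89. Rsad2, an interferon-induced antiviral protein, rose from 538, 407 and 120.3 to 1413, 1669 and 1419 (log2 2.15 ± 0.37, adjusted p = 0.00162). Reg3b, a secreted lectin, was 6279, 475 and 36.8 at 6 weeks and 3862, 922 and 5265 at 15 weeks; its arrays overlapped and the difference did not pass the test (log2 2.11 ± 0.96, adjusted p = 0.35).

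MHC class II genes and their invariant chain were lower at 15 weeks. Cd74, the invariant chain that guides class II molecules to the endosome, had intensities of 4946, 4418 and 4541 at 6 weeks and 1897, 1639.7 and 1332 at 15 weeks on its brightest probe set (X13044_at), log2 -1.50 ± 0.17, adjusted p = 2.35e-05. All 4 of its probe sets fell, by log2 values from -3.14 to -1.46. The value of -3.14 rests on 15-week intensities of 48, 39.3 and 69.9, near the added constant. It ran from -3.54 to -1.94 over all alternatives. RT1-Da, the alpha chain of the rat DR-like molecule, went from 3757, 3006 and 1891 to 477, 561 and 653 (log2 -2.23 ± 0.28, adjusted p = 8.23e-05). For both genes the 3-week high salt arrays and the 15-week controls lay above all 15-week high salt arrays. RT1-Db1, the matching beta chain, fell from 1035, 752 and 655 to 222, 179 and 186 (log2 -1.84 ± 0.26, adjusted p = 0.000299). RT1-Bb, the beta chain of the DQ-like molecule, fell from 902, 736 and 526 to 146, 182 and 182 (log2 -1.83 ± 0.26, adjusted p = 0.000261). The alpha chain RT1-Ba fell on 1 of its 3 probe sets, from 788, 615 and 457 to 50.8, 74.4 and 44 (log2 -2.76 ± 0.44, adjusted p = 0.000839), whereas its brightest probe set gave log2 -0.95 ± 0.32, adjusted p = 0.134, and the third -0.04. The called RT1-Ba change, with 15-week intensities near the added constant, ran from -3.12 to -1.66 over all alternatives. RT1 genes are a family of close copies, and the probe sets may not separate them fully.

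Of the 12 tested genes of antigen presentation 4 fell and 0 rose, with 8 at an unadjusted p under 0.05 and a median log2 change of -0.89; the count stayed at 4 without each array in turn. RT1-DMa and RT1-DMb, which load peptide onto class II molecules, had 0.09 and -0.23, and B2m, the light chain of class I, had -0.42. Tap1, a peptide transporter, and Psmb9, an immunoproteasome subunit, had -0.89 and -0.90, neither past the test. Markers of macrophages, monocytes and lymphocytes were read beside these genes. The lymphocyte list names more T cell than B cell genes, and no list of dendritic cells was made. The cells that carry class II molecules were thus not measured as a whole. Of 8 macrophage and monocyte markers 0 were called (0 at an unadjusted p under 0.05), with a median of -0.11, and their summed intensity was 2416 to 6083 at 6 weeks and 2942 to 5957 at 15 weeks. For the lysozyme gene Lyz2 the log2 change was -0.29 and for Cd14, the endotoxin co-receptor, 0.08. Of 8 lymphocyte markers 0 were called (1 at an unadjusted p under 0.05); their median was -0.10 and their sums were 1041 to 1701 and 988 to 1833. In RNA of whole ventricle, fewer cells of a type and less RNA per cell cannot be told apart.

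Class II promoters are known for a conserved module whose Y box is a CCAAT sequence. The 200 bases before the RefSeq start (GRCr8) of the 4 RT1 genes that fell on at least 1 probe set are shown for that reason, 5' to 3' on the gene's strand, with each CCAAT, or ATTGG where it lies on the other strand, in capitals.
RT1-Da (chr20:4515215-4515414, plus strand): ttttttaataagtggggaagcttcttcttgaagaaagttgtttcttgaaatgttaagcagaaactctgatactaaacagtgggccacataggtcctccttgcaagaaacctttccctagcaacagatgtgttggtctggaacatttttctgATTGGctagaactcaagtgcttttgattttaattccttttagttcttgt
RT1-Ba (chr20:4576857-4577056, plus strand): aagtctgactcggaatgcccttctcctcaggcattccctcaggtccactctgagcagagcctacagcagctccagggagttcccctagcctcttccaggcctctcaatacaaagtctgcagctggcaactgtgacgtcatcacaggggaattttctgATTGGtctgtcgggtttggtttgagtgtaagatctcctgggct
RT1-Bb (chr20:4604119-4604318, minus strand): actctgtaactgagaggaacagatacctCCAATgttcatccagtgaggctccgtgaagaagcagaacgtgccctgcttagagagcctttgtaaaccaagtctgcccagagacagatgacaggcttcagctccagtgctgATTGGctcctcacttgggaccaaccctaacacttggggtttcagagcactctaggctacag
RT1-Db1 (chr20:4560163-4560362, minus strand): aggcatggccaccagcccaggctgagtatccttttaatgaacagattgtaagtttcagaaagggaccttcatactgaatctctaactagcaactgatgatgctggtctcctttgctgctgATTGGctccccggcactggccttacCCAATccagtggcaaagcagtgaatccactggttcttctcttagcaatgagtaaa
Counted from its first base, the nearest match lies 43 bases before the start in RT1-Ba and 49 in RT1-Da. In RT1-Db1 and RT1-Bb it lies at 55 and 61 bases, and each holds a second match, at 80 and 172 bases. The RT1-Db1 match at 55 bases reads CCAAT. Its match at 80 bases and the nearest matches of the other RT1 genes read ATTGG. In the window of Cd74, not printed here, the only match lies 189 bases before the start. CCAAT on either strand was thus in 5 of 5 windows with Cd74 included, and in 29.2% of all 33469 promoter windows of the same length. The motif was chosen after the values were seen, and a match describes the sequence, not binding. Of the other motifs searched on both strands, CACGTG (4.68% of all windows) and TGACTCA (3.16%) were in none of the 5, AGGTCA (11.4%) was in 1, and ACGTG (13.7%), which also lies within CACGTG, was in 2.

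Of 16 tested genes of collagens and collagen processing 7 fell and 0 rose. Col3a1, the type III collagen chain of the interstitium, had intensities of 7349, 5197 and 3872 at 6 weeks and 329.8, 527 and 1209.8 at 15 weeks (log2 -3.06 ± 0.32, adjusted p = 9.53e-06; probe set X70369_s_at). The 3-week high salt arrays were at 7912, 8436 and 7807 and the 15-week controls at 4222, 5936 and 5633, so the 15-week high salt arrays stood alone at the bottom. Col1a2, a chain of type I collagen, went from 3247, 2159 and 1512 to 446, 728 and 909 (log2 -1.66 ± 0.28, adjusted p = 0.0013). Col1a1, the other type I chain, fell on all 4 of its probe sets, by log2 values from -1.76 to -1.21. Serpinh1, the chaperone of procollagen in the ER, fell from 3264, 2545 and 2139.6 to 1057, 495 and 422 (log2 -2.03 ± 0.28, adjusted p = 0.000239). On these probe sets the first 6-week array was the highest, and no 15-week array reached the lowest 6-week array.

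Over the whole list 11 of 16 genes had an unadjusted p under 0.05, and the median was -0.98. Col15a1, Col5a2 and P4ha1, a proline hydroxylase of collagen, made up the rest (-1.34, -1.27 and -1.09). Lox, which cross-links collagen, Plod1, a lysyl hydroxylase, and Sparc, a collagen-binding matrix protein, gave 0.04, -0.02 and -0.41, none past the test. The count was 4 to 7 when arrays were left out in turn, lowest without the first 6-week array, and 3 when only the 6 arrays compared were fitted. The call for the brightest Col1a1 probe set was lost without the first 15-week, the first 6-week or the third 6-week array (log2 -1.26 to -0.90, adjusted p 0.0536 to 0.154).

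Fibroblast markers had changes of the same sign. All 11 tested had log2 changes below 0, with a median of -0.64, but only the 4 that encode collagen chains or lumican passed the test (Col3a1, Col1a2, Col1a1 and Lum). Dcn, Pdgfra and Ddr2, a proteoglycan and 2 receptors typical of fibroblasts, had -0.42 ± 0.22, -0.42 ± 0.29 and -0.44 ± 0.31, and Vim and Thy1, an intermediate filament and a surface protein, -0.50 ± 0.31 and -0.39 ± 0.36. The summed intensity of the list was 30454 to 41771 at 6 weeks and 13814 to 25213 at 15 weeks. That sum includes the 4 called genes, so it is not separate from the collagen values. The part of fibroblast number in the collagen values was not tested.

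Among matricellular and matrix-degrading genes 1 of 29 rose and 2 fell, beside 1.67% up and 1.46% down among all genes. Lum, lumican, a proteoglycan that spaces collagen fibrils, fell from 1057, 863 and 712 to 145, 268 and 321 (log2 -1.73 ± 0.30, adjusted p = 0.00184). Vtn, the adhesion protein vitronectin, fell from 395, 453 and 379.6 to 138, 104 and 65.9 (log2 -1.69 ± 0.20, adjusted p = 3.47e-05). Spp1, osteopontin, was 501, 86 and 121 at 6 weeks and 798, 339.8 and 1273 at 15 weeks (log2 1.75 ± 0.44, adjusted p = 0.0296), so the first 6-week array lay within the 15-week range. That call was lost without the first or the third 15-week or the second or the third 6-week array (log2 1.34 to 1.67, adjusted p 0.112 to 0.160), and with no intensity filter, under quantile normalization or median centring, and in the fit of the 6 arrays alone. Fn1 (fibronectin), Timp1 (an inhibitor of matrix proteases), Mmp2 (gelatinase A) and Tgfb1 (a growth factor that drives collagen synthesis) did not pass the test, with log2 changes of -0.17 ± 0.37, 0.01 ± 0.26, -0.66 ± 0.25 and -0.71 ± 0.24. Mmp2's other probe set had the opposite sign (0.59).

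**Figure D3:**
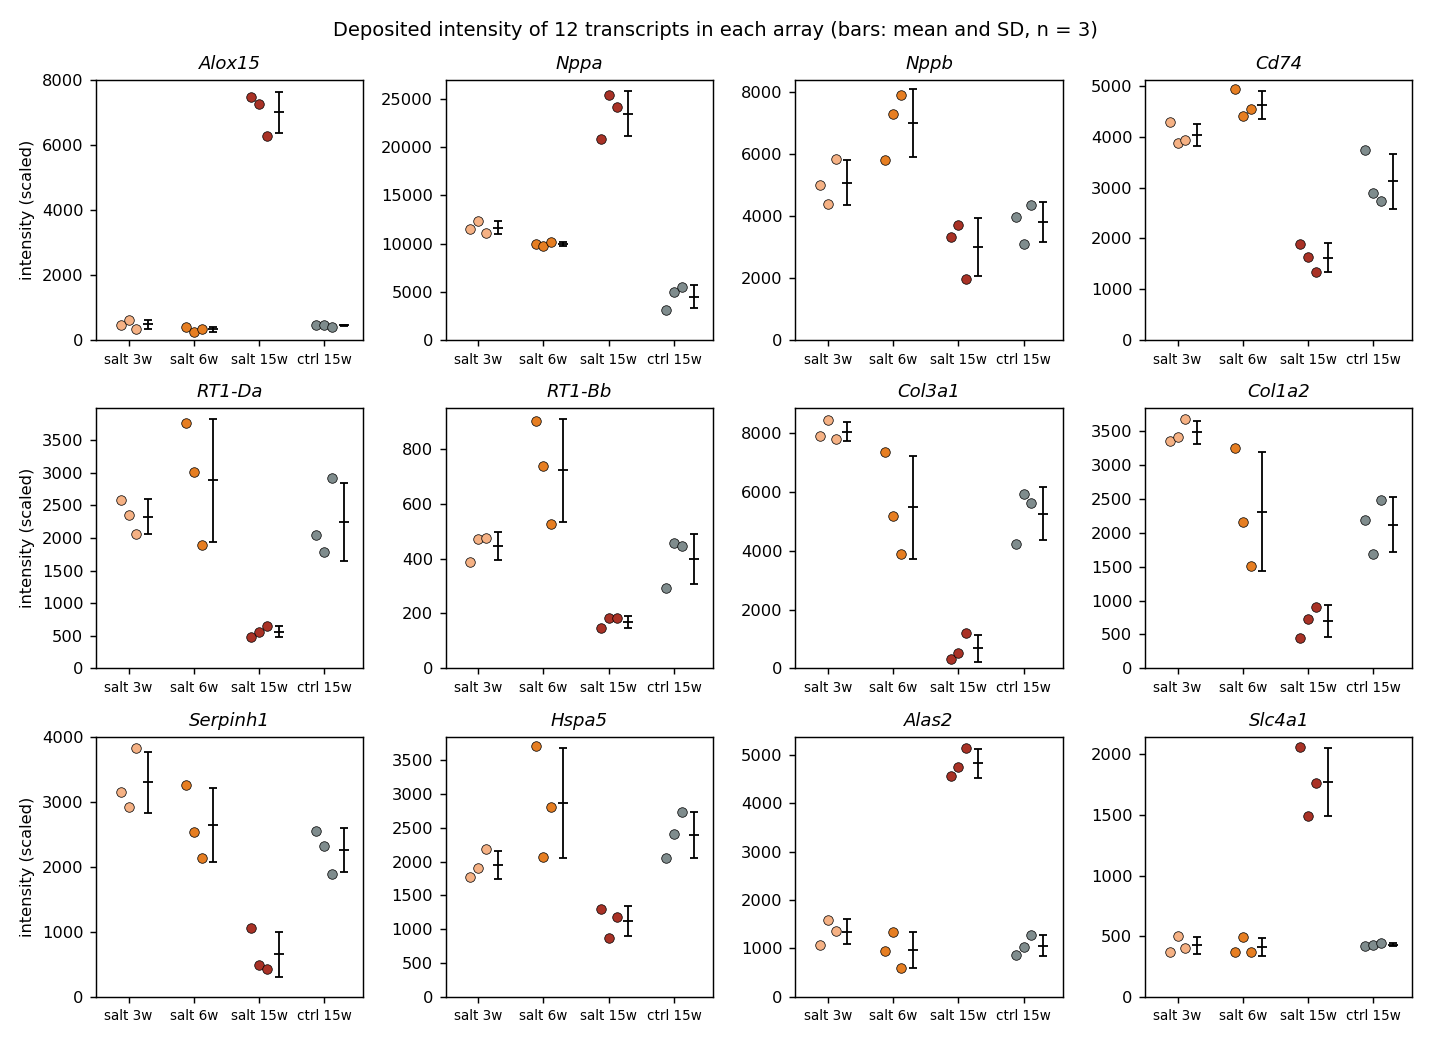
Deposited scaled intensity (vertical axes, linear, from 0) of 12 transcripts in each array of the high salt groups at 3, 6 and 15 weeks and of the 15-week controls; points are arrays and the bars beside them the mean and SD (n = 3). The 15-week high salt arrays stand apart from the 6-week arrays in all 12 panels, above them for Alox15, Nppa, Alas2 and Slc4a1 and below them in the other 8.

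ER chaperones fell in part. Hspa5 (BiP), the main Hsp70 of the ER lumen, went from 3705, 2071 and 2814 to 1302, 873 and 1185 (log2 -1.30 ± 0.21, adjusted p = 0.000762). Its other probe sets gave -0.90 and -0.36, neither past the test. Hyou1, its nucleotide exchange factor, fell from 1595, 827 and 1244 to 511, 396 and 663 (log2 -1.14 ± 0.23, adjusted p = 0.00519). The disulfide isomerases Pdia3 and Pdia4 fell as well (-0.98 ± 0.26 and -0.87 ± 0.23), with adjusted p-values of 0.039 and 0.0429. The second probe sets of Hyou1 and Pdia3 did not pass the test (-0.58 and -0.32). Of the 16 tested genes of the list 4 fell and 0 rose, with 10 at an unadjusted p under 0.05 and a median of -0.54. Hsp90b1 (the ER paralog of Hsp90) and Calr (a lectin chaperone) had -0.55 and 0.04, and Ddit3, a transcription factor of ER stress, -0.13. The number that fell was 2 to 4 over the left-out arrays, lowest without the first 15-week array, and 1 in the fit of the 6 arrays alone, where Hyou1 was at an adjusted p of 0.0697. Pdia3 was lost without the first or second 15-week or the first or the third 6-week array (log2 -0.92 to -0.73, adjusted p 0.135 to 0.213), and Pdia4 without the first or the third 15-week or the first or second 6-week array (log2 -0.90 to -0.69, adjusted p 0.104 to 0.176).

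The ER stress element, a CCAAT followed after 9 bases by CCACG, is a textbook feature of chaperone promoters, so the 200 bases before the start of Hspa5 and Hsp90b1 are shown from RefSeq (GRCr8), 5' to 3' on the gene's strand, with the letters of each match, on either strand, in capitals.
Hspa5 (chr3:38452816-38453015, plus strand): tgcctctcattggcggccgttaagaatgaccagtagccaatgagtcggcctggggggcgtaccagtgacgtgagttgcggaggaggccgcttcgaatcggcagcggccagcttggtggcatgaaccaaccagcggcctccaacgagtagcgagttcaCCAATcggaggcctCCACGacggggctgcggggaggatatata
Hsp90b1 (chr7:23012294-23012493, minus strand): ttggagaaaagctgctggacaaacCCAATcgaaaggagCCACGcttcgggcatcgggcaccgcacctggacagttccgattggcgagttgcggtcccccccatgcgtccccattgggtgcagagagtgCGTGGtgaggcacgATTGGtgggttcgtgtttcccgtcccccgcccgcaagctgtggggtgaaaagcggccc
The element was found in the windows of these 2 genes and not in those of Hyou1, Pdia4 and Calr. No window was available for Pdia3. The element occurred in 17 of 33469 windows (0.0508%) and was not among the motifs planned for the search. Of the planned motifs, ACGTG (13.7% of all windows) was in 3 of the 5 genes with a window. CACGTG (4.68%), AGGTCA (11.4%) and TGACTCA (3.16%) were in 0. Of these 2 genes Hspa5 passed the test and Hsp90b1 did not.

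Cytoskeletal genes fell in part. Actb, cytoplasmic beta-actin, was 12036, 7812 and 7884 at 6 weeks and 3531, 3696 and 4348 at 15 weeks (log2 -1.23 ± 0.20, adjusted p = 0.000828). Tuba4a, an alpha-tubulin, went from 2979.5, 2146 and 1905 to 914, 905 and 355 (log2 -1.72 ± 0.32, adjusted p = 0.00283), and Actg1, cytoplasmic gamma-actin, changed by -0.88 ± 0.21 (adjusted p = 0.0191). Of 14 tested genes 3 fell and 0 rose, with a median of -0.46. Des, the muscle intermediate filament desmin, had 0.54. The Actg1 call was lost without the third 15-week or the first or second 6-week array (log2 -0.82 to -0.81, adjusted p 0.0760 to 0.0885). Actin probe sets can read near-identical actins.

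Genes of blood vessel growth were mixed. Vegfa, the vascular endothelial growth factor, fell on all 4 of its probe sets, on the brightest from 1983, 3074 and 3523 to 1369.9, 1067 and 662 (log2 -1.45 ± 0.24, adjusted p = 0.00125). Nrp1, a co-receptor of that factor, fell from 1828, 1162 and 1437 to 838, 525 and 662 (log2 -1.08 ± 0.20, adjusted p = 0.00294). Bnip3l, a mitophagy receptor, rose from 1786, 1538 and 1834 to 3551, 3084 and 4236 (log2 1.05 ± 0.22, adjusted p = 0.00688). With P4ha1, 3 of 14 genes of hypoxia and vessel growth fell and 1 rose; the count of falls stayed at 3 without each array in turn and was 1 in the fit of the 6 arrays alone, where Nrp1 and P4ha1 were at adjusted p-values of 0.05004 and 0.08156. Kdr and Flt1, the receptors of the Vegf family, had -0.70 ± 0.31 and 0.42 ± 0.25, and 0 of 9 endothelial markers were called (1 at an unadjusted p under 0.05, limma; summed intensity 1987 to 3138 at 6 weeks and 2119 to 2989 at 15 weeks). Ndufa4l2, a hypoxia-induced mitochondrial protein, fell on 1 of 5 probe sets, from 239, 394 and 226 to 41, 75.9 and 47 (log2 -1.77 ± 0.30, adjusted p = 0.0013), and the other 4 gave -0.89 to -0.40 without passing. The called Ndufa4l2 change, with 15-week intensities near the added constant, ran from -2.09 to -0.92 over all alternatives. Ccnd1, cyclin D1, which drives the cell out of G1, fell from 816, 632 and 564 to 125, 312 and 209.9 (log2 -1.53 ± 0.27, adjusted p = 0.00212). Of its 5 probe sets 3 fell, while the other 2 had log2 changes of 0.40 and 0.35.

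Red blood cell transcripts rose, all 5 of the 5 tested markers, with a median of 1.53; the count was 4 to 5 without each array in turn and 4 in the fit of the 6 arrays alone. Alas2, the erythroid enzyme that begins heme synthesis, went from 940.4, 1343 and 604 to 4562, 4749 and 5144 (log2 2.34 ± 0.25, adjusted p = 9.53e-06). Slc4a1, the anion exchanger of the red cell membrane (band 3), went from 371, 494 and 366 to 2059, 1493 and 1765 (log2 2.01 ± 0.20, adjusted p = 4.86e-06). Its other probe sets gave 0.78 and 0.35, neither past the test. The beta-globin genes Hbb and Hbb-b1 rose by 0.99 ± 0.17 and 1.53 ± 0.20, and Epb41, a protein of the membrane skeleton, by 1.05 ± 0.25 and 2.19 ± 0.33 on its 2 probe sets. The alpha-globin Hba-a3 was 1307, 1124 and 1147 at 3 weeks, 447, 478 and 418 at 6 weeks and 1857, 1632 and 2687 at 15 weeks (log2 2.08 ± 0.23, adjusted p = 1.62e-05). Its 6-week level was also below the 3-week level (log2 -1.34 ± 0.23, adjusted p = 0.0142), so the 6-week arrays were the lowest of the 3 high salt groups. Globin genes are near-identical copies and their split is uncertain. The summed intensity of the list was 22352 to 28804 at 6 weeks, 53692 to 72282 at 15 weeks and 31353 to 45015 in the 15-week controls. The share of blood in the dissected tissue and the share of young red cells in the blood were not tested. Alas1, the housekeeping form of the heme enzyme, fell from 3211, 3116 and 4589 to 835, 1305 and 812 (log2 -1.86 ± 0.42, adjusted p = 0.0132); this call was lost without the first or the third 15-week or the third 6-week array (log2 -1.76 to -1.68, adjusted p 0.0614 to 0.0711).

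Detoxifying and antioxidant genes changed in both directions, 3 of 33 upward and 2 downward, beside 1.67% up and 1.46% down among all genes. Mgst1, a microsomal glutathione transferase, rose from 838, 367 and 990.4 to 3119, 2047 and 2027 (log2 1.74 ± 0.32, adjusted p = 0.00272), and Gstm1, a cytosolic one of a close gene family, from 988, 857 and 938 to 1919, 1918 and 2085 (log2 1.06 ± 0.16, adjusted p = 0.000557). Hmox1, heme oxygenase, rose from 677, 427 and 504 to 1113, 1138 and 1833 (log2 1.27 ± 0.29, adjusted p = 0.0175), a call lost without the third 15-week or the second or the third 6-week array (log2 1.04 to 1.24, adjusted p 0.0633 to 0.100); its other probe set gave 0.95 and did not pass. Sod3, the extracellular superoxide dismutase, and Cyba, a subunit of the superoxide-producing NADPH oxidase, fell (log2 -1.10 ± 0.30 and -1.01 ± 0.25). Both calls were lost without the first or second 15-week or the first 6-week array, which for Cyba gave log2 -0.95 to -0.71 (adjusted p 0.103 to 0.172), and in the fit of the 6 arrays alone.

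Among genes of glucose uptake and glycolysis 3 of 27 rose and 1 fell, beside 1.67% up and 1.46% down among all genes. Slc2a1, the basal glucose transporter, rose from 579, 474 and 418 to 1168, 1039 and 1469 (log2 1.25 ± 0.22, adjusted p = 0.00159; its other probe set gave 1.13 and did not pass), while Slc2a4, the insulin-responsive one, had -0.44 ± 0.21. Gpd1, glycerol-3-phosphate dehydrogenase, rose by 1.80 ± 0.34. In the fit of the 6 arrays alone 1 of the 3 rises was called, and Gpd1 was at an adjusted p of 0.0622. Fuel-burning genes showed no called change: 0 of 35 genes of fatty acid oxidation (8 at an unadjusted p under 0.05, limma; median -0.13) and 0 of 44 of oxidative phosphorylation and the citric acid cycle (1 at an unadjusted p under 0.05; median -0.19). In the latter list 36 of 44 genes had a log2 change below 0, none below -0.52. Cd36 (a fatty acid transporter), Ucp3 (a mitochondrial uncoupling protein) and Pdk4 (a kinase that blocks pyruvate oxidation) had -0.17 ± 0.44, -0.58 ± 0.25 and 0.51 ± 0.53. The Pdk4 arrays spread widely, 564, 1259.6 and 2173 at 6 weeks and 1573, 1289 and 2309.8 at 15 weeks. Clock genes were also uncalled, 0 of 9 (3 at an unadjusted p under 0.05): Nr1d1, a repressor of the clock, was 304, 321 and 186 and 463, 431 and 565 (log2 0.78 ± 0.27, adjusted p = 0.16), against 2485, 2044 and 1956 in the 15-week controls. Dbp and Per2, a clock output factor and a core repressor, had 0.27 ± 0.56 and -0.55 ± 0.26. The labels give no time of day for the tissue.

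Several large changes lay outside the groups above. Nmrk2, a muscle kinase of the NAD salvage pathway, fell from 555, 295 and 422 to 53.2, 66.3 and 41.4 (log2 -2.28 ± 0.27, adjusted p = 3.05e-05), against 437, 576 and 610.1 in the 15-week controls. Its 15-week high salt signal lies near the added constant, and its log2 change ran from -2.63 to -1.28 over all alternatives. Rgs4, which shortens signalling by G proteins, fell from 116, 128 and 169.9 to 12.1, 30.2 and 17.2 (log2 -1.57 ± 0.24, adjusted p = 0.000571). With an added constant of 200 or 16 the Rgs4 value was -0.62 or -2.12. Fat1, a large cadherin, fell from 407, 609.5 and 296 to 63, 65.7 and 117 (log2 -1.95 ± 0.38, adjusted p = 0.00434); here the 15-week controls were as low, at 140.2, 56.4 and 47.9. Ncam1, a neural cell adhesion molecule, rose on 1 probe set from 194, 62.1 and 74.4 to 939, 1098 and 1224 (log2 3.00 ± 0.36, adjusted p = 3.47e-05), while the other gave -0.07 ± 0.40. No other of 10 nerve and Schwann cell markers was called (summed intensity, Ncam1 included, 1817 to 2643 at 6 weeks and 2286 to 2934 at 15 weeks).

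Further rises came from weak signals at 6 weeks. Cdo1, which oxidises cysteine, went from 103, 133 and 23.1 to 637, 289 and 1593 (log2 2.62 ± 0.44, adjusted p = 0.00125). Car2, a carbonic anhydrase also abundant in red cells, went from 89.4, 12.5 and 44.8 to 449, 220.4 and 564 (log2 2.35 ± 0.35, adjusted p = 0.000443), and by 0.68 on its other probe set. Pcp4, a calmodulin regulator, went from 78.6, 35.3 and 15.9 to 227, 358 and 1569.7 (log2 2.81 ± 0.52, adjusted p = 0.00277), with the third 15-week array well above the other 2. Tgm1, a transglutaminase best known from skin, went from 17.4, 7.4 and 34.5 to 264, 139 and 383 (log2 2.28 ± 0.30, adjusted p = 9.83e-05). For all 4 genes every 15-week array was above every 6-week array, and the second array was the lowest of the 15-week arrays for Cdo1, Car2 and Tgm1. Their sizes depend on the added constant: with 200 and 16 the log2 values were 1.68 and 2.95 for Cdo1, 1.26 and 2.82 for Car2, 1.63 and 3.29 for Pcp4, and 1.04 and 2.93 for Tgm1. Hsd11b1, which regenerates active glucocorticoid, rose from a stronger signal, 477, 685 and 492, to 1880.2, 1010.4 and 3272 (log2 1.69 ± 0.30, adjusted p = 0.00212). With Ace it made up the 2 genes that rose among 36 of vasoactive and adrenergic signalling, where Rgs4 alone fell.

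Smaller called changes touched single genes of other lists, beside 1.67% up and 1.46% down among all genes. Kcnj8, the pore of a vascular and cardiac ATP-sensitive potassium channel, fell from 483, 394 and 343 to 133, 148 and 216 (log2 -1.13 ± 0.28, adjusted p = 0.0288), 1 of 15 ion channel genes. Klf4, a transcription factor of vessel cells, and Dusp1, a phosphatase of MAP kinases, were the 2 that fell among 24 immediate early factors, with log2 changes of -0.83 ± 0.17 and -0.83 ± 0.20. Klf4 also fell in controls (log2 -0.78 ± 0.17, adjusted p = 0.0351), with a difference between diets of -0.05 (adjusted p = 0.94), and its other probe set did not pass in high salt (-0.51). Orm1, an acute-phase glycoprotein, and Cd59b, an inhibitor of complement, rose by 1.22 ± 0.22 and 0.85 ± 0.18, 2 of 18 genes of complement and the acute phase. Lipe, hormone-sensitive lipase, rose by 0.90 ± 0.21 and was the only 1 of 8 adipocyte markers called. Pfkl, a liver-type phosphofructokinase, rose by 0.78 ± 0.20 and Pgam2, the muscle phosphoglycerate mutase, fell (log2 -0.67 ± 0.18). Kcnj8, Dusp1, Cd59b, Lipe, Pfkl and Pgam2 lost their calls without at least 1 of the 6 arrays, at adjusted p-values of 0.0514 to 0.164. Orm1 and Klf4 lost theirs in the fit of the 6 arrays alone (adjusted p 0.0574 and 0.0695). No gene was called among 15 of heat shock (2 at an unadjusted p under 0.05, limma), 40 growth factors and receptors (4), 19 of cell death (0), 28 of the proteasome (3), 20 of the lysosome (5) or 37 cytosolic ribosomal proteins (2).

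Control ventricles were set beside the high salt ventricles over the same weeks. In controls 57 of 6555 probe sets changed from 6 to 15 weeks (0.87%; 30 up and 27 down). The difference between the high salt and the control change passed the test for 105 probe sets (1.6%), 52 higher in high salt and 53 lower. The median of this difference over all probe sets was 0.09, and Alox15 (7.14 and 4.04 on its 2 probe sets), Cd74 (-3.72) and Col3a1 (-3.55) gave the largest values among named genes. Nppb had a log2 change of 1.03 in controls, which did not pass the test (adjusted p = 0.0764), and of -1.25 in high salt, a difference of log2 -2.29 ± 0.39, adjusted p = 0.00413. For Nppa the controls gave 1.22 ± 0.30 (adjusted p = 0.0548) and the high salt arrays 1.23 ± 0.30, a difference of log2 0.00 ± 0.43, adjusted p = 0.999. Nrp1 fell by nearly the same amount in both (-0.98 ± 0.20 and -1.08 ± 0.20). The 6-week controls, however, had 3'/5' ratios of 1.58 to 3.99 for GAPDH, 1.98 to 3.29 for beta-actin and 3.00 to 11.1 for hexokinase. These lay above all high salt arrays at 6 and 15 weeks. With the GAPDH ratio as a covariate 34 probe sets passed, with the beta-actin ratio 6. The count was 298 without the first and 55 without the second 6-week control, and 69 without the first 15-week control. The part of RNA quality in these differences was not tested further. Of the genes named here, Alox15, Cd74, Col3a1, Nmrk2 and Slc4a1 kept a called difference under both covariates; Cd74 did so on X14254cds_at, while X13044_at was at an adjusted p of 0.125 with the beta-actin ratio.

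**Figure D4:**
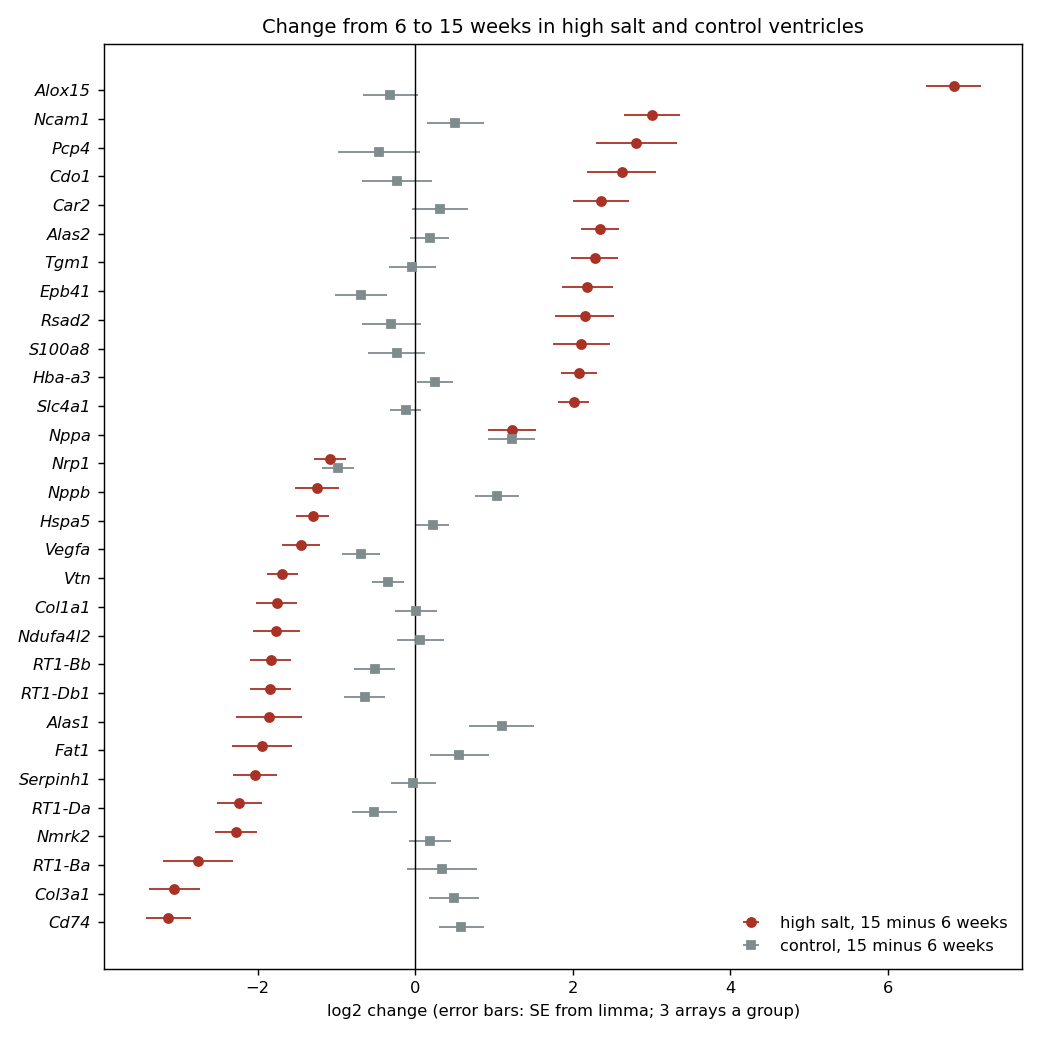
Log2 change from 6 to 15 weeks (horizontal axis; error bars are limma SEs, 3 arrays a group) in high salt ventricles (red circles) and control ventricles (grey squares) for 30 genes, ordered by the high salt change. Nrp1 and Nppa have nearly equal values in both diets, whereas Nppb lies at -1.25 in high salt and 1.03 in controls; 3'/5' ratios were high in the 6-week controls.

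Against the 15-week controls alone, which had GAPDH ratios of 1.09 to 1.58, 472 probe sets differed from the 15-week high salt arrays (7.2%; 215 higher and 257 lower in high salt). Both comparisons share the 15-week high salt arrays, so the values are given side by side. The log2 difference from these controls was 3.86 for Alox15, 2.41 for Nppa, -0.93 for Cd74, -1.90 for RT1-Da, -3.04 for Col3a1 and -1.08 for Hspa5, with adjusted p-values of at most 0.00254 to 3 digits. Some genes that changed from 6 to 15 weeks did not differ detectably from controls at 15 weeks, among them Nppb (log2 -0.37 ± 0.28, adjusted p = 0.517) and Fat1 (log2 0.05 ± 0.38, adjusted p = 0.966). Others differed from controls without passing the test from 6 to 15 weeks: Acta1 (log2 1.07 ± 0.18, adjusted p = 0.000922), Pdk4 (log2 3.55 ± 0.53, adjusted p = 0.000324) and Nr1d1 (log2 -2.07 ± 0.27, adjusted p = 9.9e-05). A difference past the threshold in 1 comparison and not in the other was not itself tested here.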

How the data were processed

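Gene expression was measured on an Affymetrix rat array with total RNA of left ventricle. The authors deposited 1 linear intensity per probe set, scaled to a common trimmed mean in each array, as the values show; the summary software is not given in the sources used here. Gene symbols came from the platform annotation: 7006 of 8740 probe sets have 1 symbol, 308 several and 1426 none. After 59 control probe sets were removed, those with a mean intensity below the 25th percentile were dropped, which left 6555. The 4 control and exercise columns at 3 weeks (2 arrays deposited under both labels) were left out. The other 20 arrays were fitted together in limma 3.58.1 (R 4.3.3), as log2(intensity + 40), with 1 mean per group, no replicate block, 12 residual degrees of freedom, an intensity trend and Benjamini-Hochberg adjustment over all tested probe sets. On data simulated with the fitted spread, the script called 54% of changes of log2 1 and 96% of changes of log2 2 in the right direction. Of its 158 calls there, 8 were false. An uncalled gene may therefore still have changed by log2 1.

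Named genes are the 12 largest called changes per direction without overlap between arrays, the 5 largest differences from the control change per direction, up to 4 called genes per list, and 30 genes of interest. Genes described for context were added after their values were seen. The comparison and lists were chosen with earlier results of these data known. Alternatives covered the added constant, filter, normalization, arrays fitted, replicate block, array weights and RNA ratios; the fit without the 6-week controls was chosen after seeing the data. Promoters came from the RefSeq table (GRCr8), which holds 64 of the 84 named genes.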

Additional observations from a re-analysis of the deposited data

Results flagged for a closer look

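For 42 probe sets of named genes the change from 6 to 15 weeks differed between high salt and control ventricles by limma's test of the difference (adjusted p under 0.05; 105 of 6555 probe sets passed, 1.6%). Each value below is the high salt change minus the control change on the log2 scale. Each was read from 1 probe set, and other probe sets of the same gene did not all pass. Among immune genes the difference was 7.14 and 4.04 for the 2 Alox15 probe sets, 2.34 for S100a8, 2.45 and 2.79 for the 2 Rsad2 probe sets and 1.44 for Cd59b. The class II genes lay on the other side, at -3.72 and -1.78 for Cd74, -3.09 for RT1-Ba and -1.71 for RT1-Da. The other RT1-Da probe set gave -1.17 and did not pass (adjusted p = 0.0547, limma). Matrix genes were at -3.55 for Col3a1, -2.01 for Serpinh1, -1.77 for Col1a1 and -1.34 for Vtn. The brightest Col1a1 probe set gave -1.12 and did not pass (adjusted p = 0.191, limma). Red cell and heme genes were at 2.16 for Alas2, 2.13 for Slc4a1, 2.87 for Epb41, 1.82 for Hba-a3, 1.22 for Hbb-b1 and -2.95 for Alas1.

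Natriuretic and vasoactive genes were at -2.29 for Nppb, 1.71 for Ace, 2.19 for Hsd11b1 and -1.67 for Rgs4. The ER chaperones Hspa5 and Hyou1 gave -1.52 and -1.98, and the cytoskeletal Actb and Tuba4a -1.27 and -1.89. Metabolic and detoxifying genes were at 1.31 for Slc2a1, 1.12 for Gstm1, 2.85 for Cdo1, 2.04 for Car2, 1.47 for Lipe, -2.47 for Nmrk2 and -1.83 for Ndufa4l2. Ndufs8, a subunit of respiratory complex I, was at -2.75. Its change within high salt, log2 -0.48 ± 0.48, did not pass limma's test (adjusted p = 0.759). The control change of Ndufs8 was 2.27 ± 0.48 (adjusted p = 0.0351). The remaining values were 2.49 for Ncam1, 3.27 for Pcp4, 2.31 for Tgm1, 1.36 for Bnip3l, -2.50 for Fat1 and -1.77 for Ccnd1. Other probe sets of Gstm1 did not pass limma's test of the difference (adjusted p = 0.648 and 0.130). The same held for other probe sets of Cdo1 (0.600), Car2 (0.0544) and Ccnd1 (0.439 on X75207_s_at).

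All of these use the 6-week controls, whose GAPDH 3'/5' ratios were 1.58 to 3.99 against 1.04 to 1.17 in the 6-week high salt arrays. With the GAPDH ratio as a covariate 12 of the 42 passed, and with the beta-actin ratio 6. Without the first, second or the third 6-week control 42, 25 and 38 passed.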

How the results depend on the processing

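Of the 67 called probe sets of named genes, 42 kept their call in every alternative setting that tested them. There were 22 settings, and 21 of them tested Tgm1, S100a8 and Rgs4. The other 25 probe sets lost the call in at least 1, and none changed direction while called. The count of 209 became 471 with array weights (202 shared) and 107 when only the 6 arrays compared were fitted (105 shared), and ran from 141 to 194 without each array in turn. Whether array numbers pair the arrays was not settled. Deviations from the group means correlated at -0.06, 0.24 and 0.20 between 6- and 15-week high salt arrays of the same number. Between arrays of different numbers the correlations ran from -0.29 to 0.09. With a replicate block 183 probe sets changed, and 96 for the difference between diets. That difference (105) became 189 with all 24 columns, 688 with array weights, 34 with the GAPDH ratio and 6 with the beta-actin ratio as a covariate, 37 with only the 4 groups compared, and 55 to 298 without each array in turn. Its split of 52 higher and 53 lower became 35 and 56 under median centring and 5 and 29 with the GAPDH ratio. The causes were not tested.

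The genes that changed sign were all uncalled. Pln turned to 0.063 under quantile normalization, 0.122 with array weights and 0.039 and 0.037 with the GAPDH and beta-actin ratios; Myh7 to 0.037 under quantile normalization; Cd36 to 0.123 with array weights. Timp1 turned to -0.005 with an added constant of 200, -0.018 under quantile normalization, -0.004 under median centring, -0.114 with array weights, and -0.010 and -0.007 with the ratios. Without each array in turn Acta1 ran from -0.079 to 0.172, Myh7 from -0.333 to 0.010, Pln from -0.223 to 0.137, Ryr2 from -0.361 to 0.857, Fn1 from -0.595 to 0.289, Timp1 from -0.279 to 0.369, Cd36 from -0.623 to 0.122, Dbp from -0.303 to 1.277 and Bmal1 from -1.175 to 0.257 on the log2 scale.

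With 3 arrays a group and no depth to count, weak signals near the added constant of 40 are the least certain.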

Other observations

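Outside the lists, some genes were read by several called probe sets; they were picked after their values were seen. Glul, glutamine synthetase, rose on all 4 of its probe sets, by log2 values of 1.29 to 1.55. Maoa, the monoamine oxidase that breaks down noradrenaline and serotonin, rose on 2 of 2 probe sets (log2 at least 1.27), but also in the controls over the same weeks (1.28 and 1.72, adjusted p = 0.0261 and 0.0105), and its difference between diets did not pass limma's test (adjusted p = 0.996 and 0.813). Both probe sets rose for Slc3a2, the heavy chain of amino acid transporters (1.56 and 1.69), and for Emb, an immunoglobulin-family membrane protein (1.55 and 1.72). Agreement among probe sets of 1 transcript is no replicate of the hearts, since all were read from the same 6 arrays.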
